A study of Anas platyrhynchos with 12 samples.

Results

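The genes described here are 6 interferon-induced effectors of duck breast muscle, out of 16433 gene models in the count table. They are IFIT5 (ncbi_101797569), MX (ncbi_101793492), RSAD2 (ncbi_101791352), USP18 (ncbi_101803806), EIF2AK2 (ncbi_110353866) and ZNFX1 (ncbi_101792842). They were selected on measured values of these same libraries, with the difference between the groups and the shared pattern already known. Their levels, folds, group differences and correlations are therefore given as a description and carry no test. All 6 were among the 12577 genes that passed the filter on low counts.

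The samples were breast muscle from an F2 duck population at 42 days of age, raised under common conditions. By their labels, 6 samples had a high ratio of breast muscle (HB) and 6 had a low ratio (LB). The comparison asks which transcripts differ with the yield of breast muscle. The labels give no strain, sex, litter, batch or infection status and name no treatment. The 12 count columns name a group and a number, such as LB-5, and that number only names a library here. Since no label says whether each sample was a different bird, p-values cover the spread among these 12 samples, which may be partly technical.

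Interferons are secreted by cells that sense foreign nucleic acid. They bind receptors that act through the JAK1 and TYK2 kinases, and the signal switches on a broad set of antiviral genes. The members do different jobs within that set. IFIT5 binds foreign RNA ends, MX is a dynamin-like GTPase that blocks viral replication in several species, and RSAD2 (viperin) converts CTP into a chain terminator of viral RNA synthesis. EIF2AK2 (PKR) halts translation when it meets double-stranded RNA, and ZNFX1 is a helicase that, in mammals, senses double-stranded RNA early in infection. USP18 is both a target and a brake, since it removes ISG15 from proteins and, in mammals, blocks the type I interferon receptor.

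Library depth lay between 24090771 and 42503751 counts, and LB-5 held 36479202. Each library had counts for 13406 to 13942 gene models. HB-4 received the lowest sample weight, 0.3, in a fit with limma voom weights, and LB-5 received 1.2. The 8 muscle fibre markers found summed to 58400 to 103000 FPKM (fragments per kilobase of gene model, scaled to library total) in every library, so the tissue label was met by its markers.

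IFIT5 stood at 1.46, 3.80, 2.01, 0.727, 1.29 and 6.76 FPKM in HB-1 to HB-6, and at 0.945, 13.7, 4.80, 2.46, 78.0 and 1.65 FPKM in LB-1 to LB-6. LB-5 lay far above every other library, LB-2 and HB-6 came next, and the remaining values of the groups overlapped. The lowest library, HB-4, had 52 IFIT5 counts and LB-5 had 6098, a 107-fold range in FPKM. The range over the other 11 libraries was 18.9-fold.

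MX stood at 0.482, 0.544, 0.302, 0.403, 0.324 and 1.48 FPKM in HB-1 to HB-6, and at 0.0952, 2.36, 0.358, 0.292, 10.9 and 0.396 FPKM in LB-1 to LB-6. It was the lowest of the 6 genes in all 12 libraries, and the groups overlapped, with LB-5 and LB-2 above the HB range and LB-1 and LB-4 below it. Its 114-fold range set 1299 counts in LB-5 against 10 in LB-1. The exact Poisson 95% interval of the LB-1 level was 0.0456 to 0.175 FPKM and covers counting error only, so the size of the MX fold is loosely fixed. Without LB-1 the MX range was 37.3-fold. Without LB-5 the range was 24.8-fold.

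RSAD2 stood at 1.13, 2.35, 0.625, 0.658, 1.00 and 3.21 FPKM in HB-1 to HB-6, and at 1.63, 6.89, 2.25, 2.55, 34.5 and 0.766 FPKM in LB-1 to LB-6. In LB, 4 of the 6 values lay inside the HB range, and LB-2 and LB-5 lay above it. The range was 55.2-fold over all libraries and 11-fold without LB-5.

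USP18, the brake among the members, stood at 1.03, 1.63, 0.809, 0.914, 0.813 and 2.84 FPKM in HB-1 to HB-6, and at 0.785, 5.4, 2.03, 2.23, 18.9 and 0.914 FPKM in LB-1 to LB-6. It followed the same top order as the effectors, with LB-5 above LB-2 and LB-2 above HB-6. The range was 24.1-fold, and 6.88-fold without LB-5.

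The sensor kinase and the helicase had higher median levels and narrower ranges. EIF2AK2 stood at 5.0, 7.58, 3.14, 4.30, 5.37 and 7.76 FPKM in HB-1 to HB-6, and at 2.84, 8.29, 7.29, 7.13, 28.1 and 3.23 FPKM in LB-1 to LB-6. Only LB-5 stood clear of the rest, for LB-2, HB-6 and HB-2 lay close together. Its range was 9.89-fold, and 2.92-fold without LB-5.

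ZNFX1 stood at 7.93, 8.77, 8.38, 8.0, 7.77 and 12.3 FPKM in HB-1 to HB-6, and at 6.86, 16.4, 10.8, 10.2, 31.9 and 6.52 FPKM in LB-1 to LB-6. The HB libraries were nearly level apart from HB-6, while LB libraries spread on both sides of them. The range was 4.88-fold, and 2.52-fold without LB-5.

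**Figure D1:**
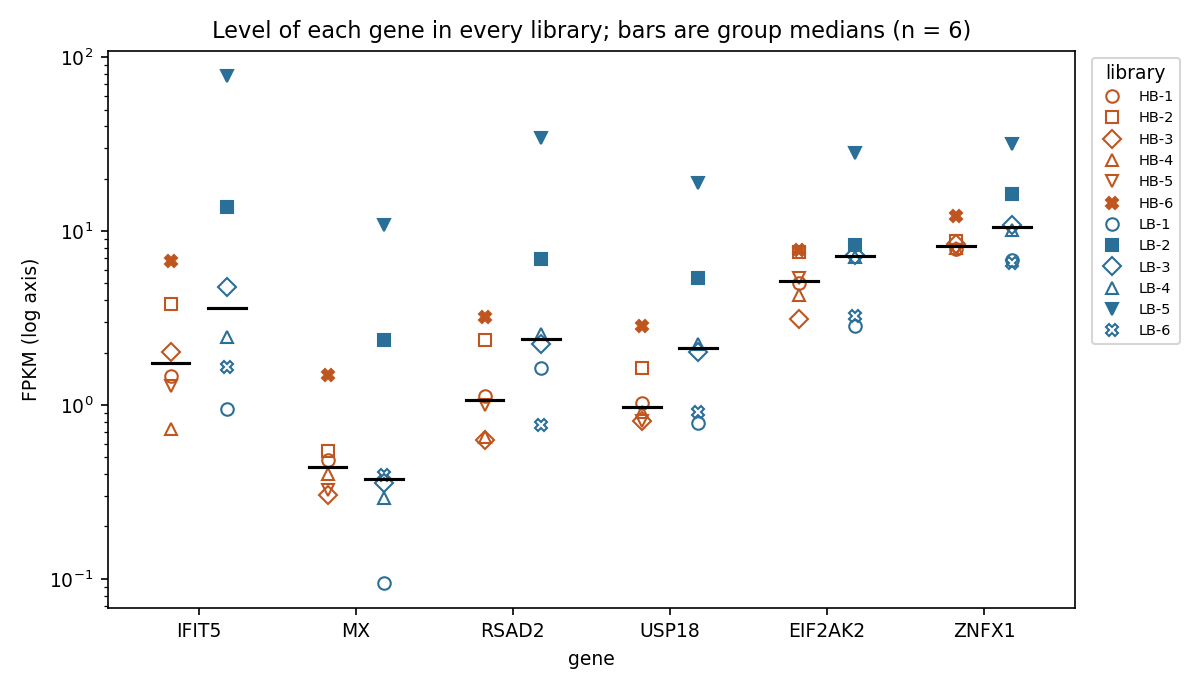
FPKM on a log axis for each gene, with 1 point per library, HB left and LB right of each position, filled symbols for LB-5, LB-2 and HB-6, and bars for the group medians (n = 6). LB-5 is the highest point for all 6 genes, from 10.9 FPKM for MX to 78.0 FPKM for IFIT5, while the other libraries of the groups overlap.

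A second gene model, ncbi_101798516, carries the symbol EIF2AK2 in the deposited table and has no entry in the reference used here. Reads may be split between both models, which makes the EIF2AK2 level uncertain. The second model had 2.06 ± 1.06 FPKM in HB (SD, n = 6) and 6.02 ± 8.66 FPKM in LB (SD, n = 6), and it reached 23.4 FPKM in LB-5. Its range of 22.2-fold was wider than the 9.89-fold range of the first model. It too was highest in LB-5, then LB-2, then HB-6.

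By the median FPKM of 12 libraries, the order from high to low was ZNFX1 (8.58), EIF2AK2 (6.25), IFIT5 (2.23), RSAD2 (1.94), USP18 (1.33) and MX (0.399). ZNFX1 exceeded EIF2AK2, and USP18 exceeded MX, in 12 of 12 libraries. The middle of the order was less firm. EIF2AK2 exceeded IFIT5 in 10 libraries but not in LB-2 and LB-5, IFIT5 exceeded RSAD2 in 10 but not in LB-1 and LB-4, and RSAD2 exceeded USP18 in 9 but not in HB-3, HB-4 and LB-6.

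The order by fold range, from wide to narrow, was MX, IFIT5, RSAD2, USP18, EIF2AK2 and ZNFX1. The first place of MX rested on its 10 counts in LB-1. Without LB-1 MX (37.3-fold) came behind IFIT5 (107-fold) and RSAD2 (55.2-fold). On FPKM + 0.1 it reached 56.2-fold against 94.4-fold for IFIT5, and on FPKM + 1 its 10.8-fold range was also below RSAD2 (21.8-fold) and USP18 (11.1-fold). EIF2AK2 and ZNFX1 had the narrowest ranges in each of these settings. The ranking of levels changed in LB-5, where IFIT5 came first and RSAD2 second, ahead of ZNFX1, whereas ZNFX1 came first in the other 11 libraries. The FPKM of IFIT5 was 0.0909 times that of ZNFX1 in HB-4, 0.837 times in LB-2 and 2.45 times in LB-5. For RSAD2 this ratio went from 0.0746 in HB-3 to 1.08 in LB-5. The ratio of EIF2AK2 to ZNFX1 moved less, from 0.375 in HB-3 to 0.881 in LB-5, and HB-2 with 0.864 was close to that top.

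**Figure D2:**
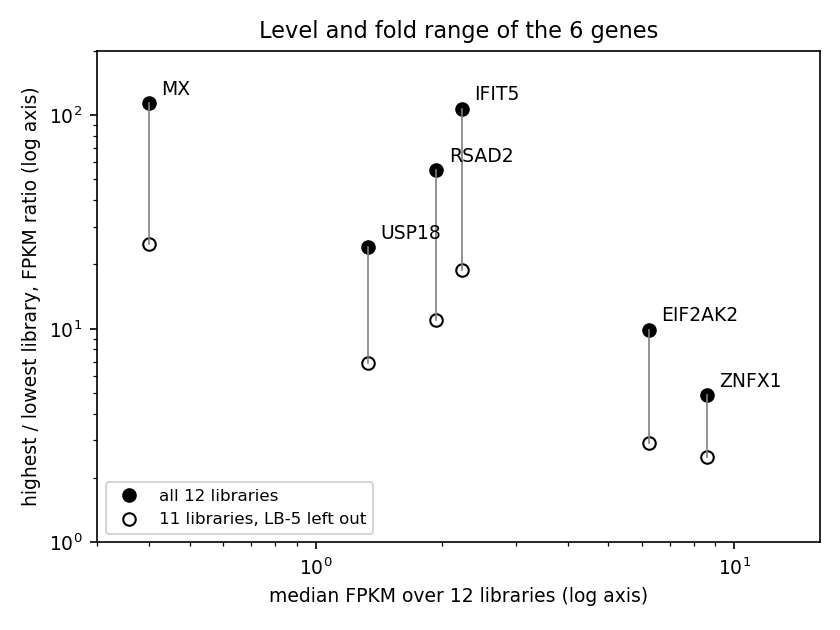
Ratio of the highest to the lowest library in FPKM against the median FPKM over 12 libraries, both on log axes, with filled points for all libraries and open points with LB-5 left out. MX, with the lowest median (0.399 FPKM), lies at 114-fold, or 37.3-fold without LB-1, IFIT5 lies at 107-fold, and ZNFX1, with the highest median (8.58 FPKM), has the narrowest at 4.88-fold.

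LB-5 was the highest library for 6 of 6 members, against 8.29% of all genes tested. Since the members were chosen on these libraries, nothing is read from that share. Over its median across 12 libraries, LB-5 was 34.9-fold for IFIT5, 27.2-fold for MX, 17.8-fold for RSAD2, 14.2-fold for USP18, 4.49-fold for EIF2AK2 and 3.71-fold for ZNFX1. The next library, LB-2, stood 6.15-fold over the median for IFIT5 and 1.33-fold for EIF2AK2. For comparison, the highest library of the median gene stood 1.41-fold above its median. At a high percentile of all genes tested, this fold was 9.12. These values over all genes came from counts scaled to adjusted library totals, and the member folds from FPKM. The members were also chosen on these libraries, so they are not ranked against these values.

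Of 907 genes that peaked in LB-5 with at least 1 FPKM in that library, 10 reached at least 10-fold over their median. A gene could enter that count through LB-5 alone. IFIT5, MX and RSAD2 led them and USP18 came behind CMPK2 (15.4-fold) and HS3ST2 (14.9-fold). EPSTI1 (13.7-fold), DDX60 (13.2-fold), the second EIF2AK2 model (12.3-fold) and an assembled model without a symbol (12.2-fold) completed the set. HS3ST2 encodes a heparan sulfate sulfotransferase and is in none of the pathway lists.

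Between the groups, the fitted log2 difference (HB minus LB) was negative for 6 of 6 members, against 50.1% of all genes tested. It was -2.61 ± 1.00 (SE) for IFIT5, -1.96 ± 0.96 for MX and -2.38 ± 0.85 for RSAD2. It was -1.86 ± 0.71 for USP18, -0.73 ± 0.47 for EIF2AK2 and -0.59 ± 0.33 for ZNFX1. The SE of log2 differences, here and below, was back-calculated as the absolute difference divided by the square root of edgeR's quasi-likelihood F. Mean FPKM (± SD, n = 6 per group) for IFIT5 came to 2.67 ± 2.26 in HB against 16.9 ± 30.3 in LB. For MX it was 0.589 ± 0.445 and 2.40 ± 4.24, for RSAD2 1.5 ± 1.05 and 8.09 ± 13.1, and for USP18 1.34 ± 0.798 and 5.04 ± 6.98. For EIF2AK2 it was 5.53 ± 1.83 and 9.47 ± 9.38, and for ZNFX1 8.86 ± 1.72 and 13.8 ± 9.55. In LB the SD exceeded the mean for IFIT5, MX, RSAD2 and USP18.

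That difference rested largely on 1 library. LB-5 held 76.8% of the summed IFIT5 FPKM of the LB group, 75.6% for MX, 71.0% for RSAD2, 62.4% for USP18, 49.4% for EIF2AK2 and 38.5% for ZNFX1. Without LB-5 the fitted log2 difference was -0.77 for IFIT5, -0.18 for MX, -0.88 for RSAD2, -0.72 for USP18, -0.03 for EIF2AK2 and -0.16 for ZNFX1. The group medians were 1.73 FPKM in HB and 3.63 in LB for IFIT5, but 0.442 in HB and 0.377 in LB for MX. The ranges of the groups overlapped for 6 of 6 members, and 0.0954% of all genes tested had ranges that did not. Across the whole table, edgeR's quasi-likelihood test called 0% of genes (0 of 12577) at an adjusted p of 0.05, with 579 genes at an unadjusted p under 0.05, and DESeq2 called 1.

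**Figure D3:**
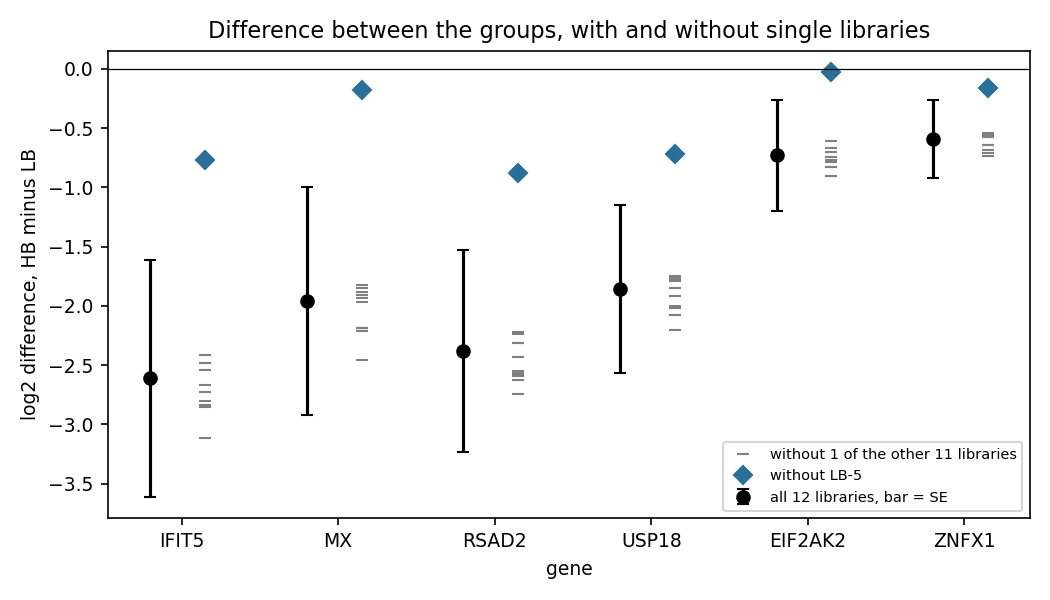
Fitted log2 difference, HB minus LB, for each gene, with black points and SE bars for all 12 libraries, grey dashes for fits without 1 of the other libraries and diamonds for the fit without LB-5. The diamonds lie nearest to 0 for all 6 genes, at -0.77 for IFIT5 and -0.03 for EIF2AK2.

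The members varied together across libraries, less closely once LB-5 was left out. Pearson's r was computed on log2 CPM, which are counts scaled to library totals adjusted by TMM factors. Over the 15 pairs and 12 libraries, it had a lowest value of 0.83, a median of 0.92 and a highest of 0.97. Spearman's rho ran from 0.59 to 0.95 with a median of 0.81. Without LB-5 the median r was 0.78 and the lowest 0.57. In a further setting, the 2 libraries farthest from the median of the pair's first gene were left out. These were LB-2 and LB-5, except for EIF2AK2 with ZNFX1, where they were LB-5 and LB-6. The median r was then 0.70, with a lowest value of 0.26 for MX and RSAD2. Within the 6 HB libraries the median r was 0.85, and within the 6 LB libraries it was 0.97. The value within LB includes LB-5, and none was computed within LB without that library, so the groups are not compared by these values. The pairs share libraries and depth, so these correlations are a description across 12 libraries.

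By r, USP18 tracked the rest most closely, with r = 0.99 against the mean of the other 5 members and 0.97 without LB-5. By rho, EIF2AK2 came first with 0.97 (r = 0.93), and USP18 and ZNFX1 each had 0.94. MX tracked the rest least by both measures, with r = 0.90, or 0.73 without LB-5, and rho = 0.62. Averaged over the members, log2 CPM stood 3.27 above the gene's mean in LB-5, 1.3 in LB-2 and 0.67 in HB-6. At the other end lay LB-1 at -1.09, LB-6 at -1.04 and HB-4 at -0.94. Both ends of the order therefore held libraries of both groups.

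Among 9938 eligible genes, those whose pattern was most like the mean of the members were SAMD9L (r = 0.979 over 12 libraries), ZC3HAV1 (0.973), PARP9 (0.969), TDRD7, SAMD9 and DDX60 (each 0.964), MOV10 (0.961), DHX58 (0.960), PARP14 (0.959), RIGI (0.958), HERC3 (0.955) and the second EIF2AK2 model (0.952). The next gene reached 0.95, so the end of the list is arbitrary, and the median over eligible genes was -0.003. ZC3HAV1 is a zinc finger protein that binds viral RNA, PARP9 and PARP14 are ADP-ribosyltransferase family members, and DHX58 and RIGI are RNA helicases of viral sensing. Without LB-5, the leading 6 were SAMD9L (0.939), ZC3HAV1 (0.929), PARP9 (0.906), DDX60 (0.90), SAMD9 (0.894) and TDRD7 (0.893), and 11 of the first 12 were shared with the ranking over all libraries. With Spearman's rho in place of r, 8 of the first 12 were shared. The count with r over 0.9 was 23 over 12 libraries and 4 without LB-5.

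**Figure D4:**
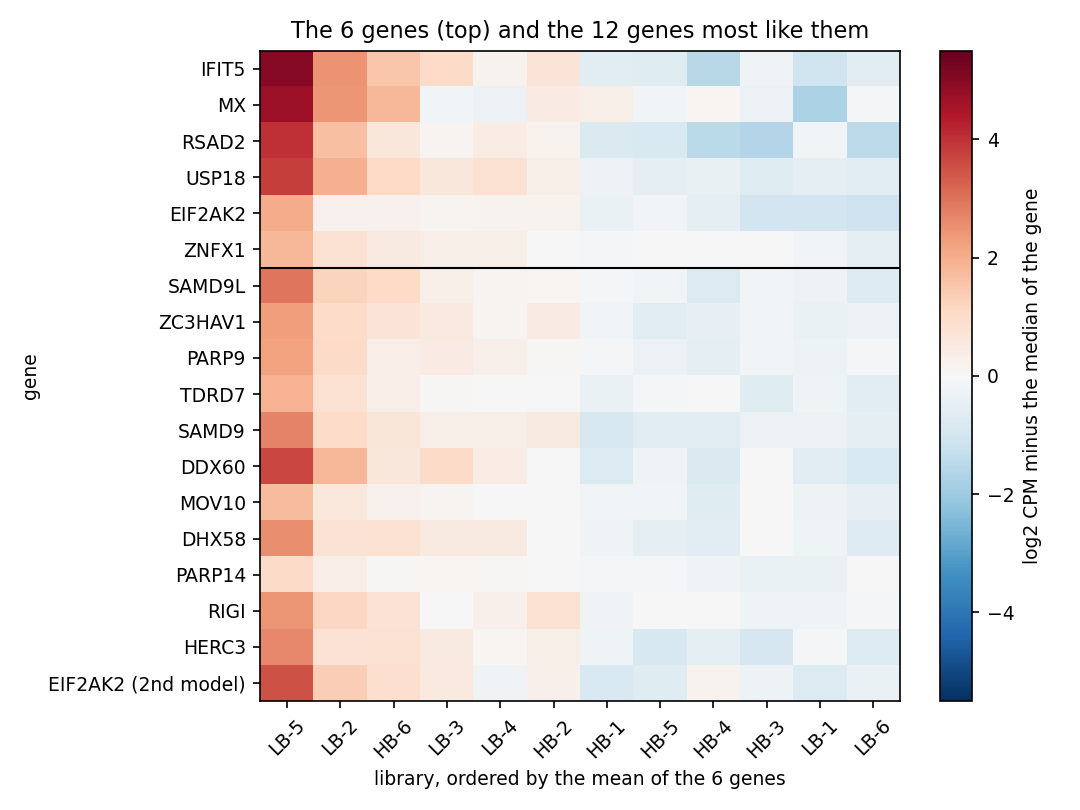
log2 CPM minus the gene's median for the 6 genes above the line and the 12 genes most like them below it, with libraries ordered by the mean standardised log2 CPM of the 6 genes. LB-5 is the darkest column throughout, LB-2 and HB-6 follow in most rows, and SAMD9L (r = 0.979) is the most like of the 12.

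The rest of the pathway was described with lists written with earlier results of these data known. Of the interferon ligands listed, IFNK and IFNG were found, and neither passed the filter on low counts. A further 4 models with the symbol IFN were added after the names were seen, and 2 of them passed it, with 127 and 152 counts over all libraries. Together these 6 ligand models held 369 counts in all libraries, 16 to 42 per library, and 17 in LB-5. IFNG, the type II interferon, had 2 counts, both in LB-5, which is under the limit of 3 counts that a count of 0 allows.

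Of the receptors and signal carriers, 9 were tested, 6 were lower in HB (6 without LB-5) and 1 was highest in LB-5 (11.1%). The receptor kinases JAK2 and TYK2 had log2 differences of -0.11 ± 0.14 and -0.10 ± 0.11 (SE). JAK1, at 0.04 ± 0.09, was among the 3 higher in HB. IL10RB, a shared receptor chain of type III interferon, had -0.22 ± 0.21. STAT2 and IRF9 were not matched by symbol and were not analysed here.

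Of the sensors and upstream factors, 14 were tested, 12 were lower in HB (9 without LB-5) and 9 were highest in LB-5 (64.3%). RIGI, the cytoplasmic sensor of viral RNA ends, had 2.76 ± 1.07 FPKM in HB and 4.62 ± 4.34 in LB, with 13.1 FPKM in LB-5. IRF7, a transcription factor that drives interferon genes and that the deposited table calls IRF3, had 4.02 ± 0.994 FPKM in HB and between 3.57 and 29.0 in LB, with a median of 4.62 and the highest value in LB-5. Its log2 difference of -1.06 ± 0.49 became -0.17 without LB-5. IFIH1, the sensor of long double-stranded RNA, lay at 4.06 ± 0.274 and 4.54 ± 2.29 FPKM with a log2 difference of -0.10 that became 0.18 without LB-5. DHX58, which tunes the other RNA helicase sensors, had a log2 difference of -0.99 ± 0.49, or -0.26 without LB-5. TRIM25, the ligase that activates RIGI in mammals, had -0.43 ± 0.23, or -0.17 without LB-5, and IRF1, an interferon regulatory factor, had -0.22 ± 0.25, or -0.05 without LB-5. Each of these sensors and factors was highest in LB-5.

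Among the lists, other interferon-induced effectors held the highest share of genes that peaked in LB-5. Of 28 tested, 27 were lower in HB and the median log2 difference was -0.45. Without LB-5, 24 were lower and the median was -0.22, while the median of all genes tested was 0.00 in both fits. At an unadjusted p under 0.05 in edgeR, 11 of the 28 were lower in HB, against 2.27% of all genes, and 0 passed adjustment. The list was written with earlier results of these data known and its genes share libraries, so nothing is read from that share. LB-5 was highest for 23 of the 28 (82.1%), and in 17 of these LB-2 came second. IFITM2 is a membrane protein that hinders virus entry, and the deposited table calls this model IFITM5. It had 74.8 ± 19.4 FPKM in HB and 132 ± 77.2 in LB, or 102 ± 22.9 in LB without LB-5 (n = 5). Its log2 difference of -0.78 ± 0.3 (SE) became -0.42 without LB-5. ADAR, which edits double-stranded RNA, had 16 ± 2.0 and 21.1 ± 4.51 FPKM and a log2 difference of -0.35 ± 0.12 (SE), or -0.25 without LB-5.

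DDX60, a helicase that aids viral RNA sensing, had 0.902 ± 0.372 FPKM in HB and 3.56 ± 4.82 in LB, and its log2 difference of -1.92 ± 0.68 became -0.83 without LB-5. PNPT1, a mitochondrial RNA exonuclease, departed from this pattern. It was highest in LB-4 and had a 1.33-fold range over 12 libraries, yet its difference of -0.20 ± 0.08 was also -0.20 without LB-5. For each of IFITM2, ADAR, DDX60 and PNPT1 the edgeR adjusted p was 0.977.

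The remaining lists were closer to the whole table in these shares. Among 11 brakes on interferon signalling, 6 were lower in HB (5 without LB-5), the median log2 difference was -0.03 and 2 were highest in LB-5 (18.2%). These included SOCS1, which inhibits the JAK kinases, at 0.912 ± 0.427 FPKM in HB and 1.24 ± 0.528 in LB. PIAS4, a SUMO ligase that restrains cytokine signalling, had a positive log2 difference of 0.31 ± 0.16, the phosphatase PTPN11 had 0.22 ± 0.11, and the phosphatase PTPN1 had -0.17 ± 0.13. Among 9 antigen presentation genes, 5 were lower in HB (5 without LB-5) and 1, the peptide-trimming ERAP1, was highest in LB-5 (11.1%). However, LB-2, the second library for the members, was highest for 4 of the 9, and LB-5 was second for 4 of the 9. TAP1, a chain of the peptide transporter, had 12 ± 2.05 FPKM in HB and 16.9 ± 5.08 in LB and was highest in LB-2. Its log2 difference was -0.45 ± 0.19 (SE), or -0.41 without LB-5. The partner chain TAP2 went the other way, at 15.4 ± 5.19 FPKM in HB and 14.8 ± 5.59 in LB. For TAP2 the log2 difference was 0.11 ± 0.24, or 0.20 without LB-5. NLRC5, the activator of MHC class I genes, had a log2 difference of -0.42 ± 0.17, and CIITA, the activator of class II genes, had 0.26 ± 0.21.

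Among 14 NF-kB inflammatory genes, 5 were lower in HB, the median was 0.19 and 0 were highest in LB-5. The count lower in HB was 10 without HB-4 and 3 without HB-1 or without HB-5, and the median was -0.12 without HB-4. IL6 and NFKBIZ, an inducible cytokine and a regulator of NF-kB targets, were highest in HB-4 at 0.419 and 10.7 FPKM. LITAF, a regulator of inflammatory cytokines, had a log2 difference of -0.62 ± 0.29. CCL5, a chemokine of that list, was highest in LB-1 at 81.3 FPKM, a library in which the members were among their lowest on average. No gene of any list passed edgeR's adjusted p of 0.05.

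**Figure D5:**
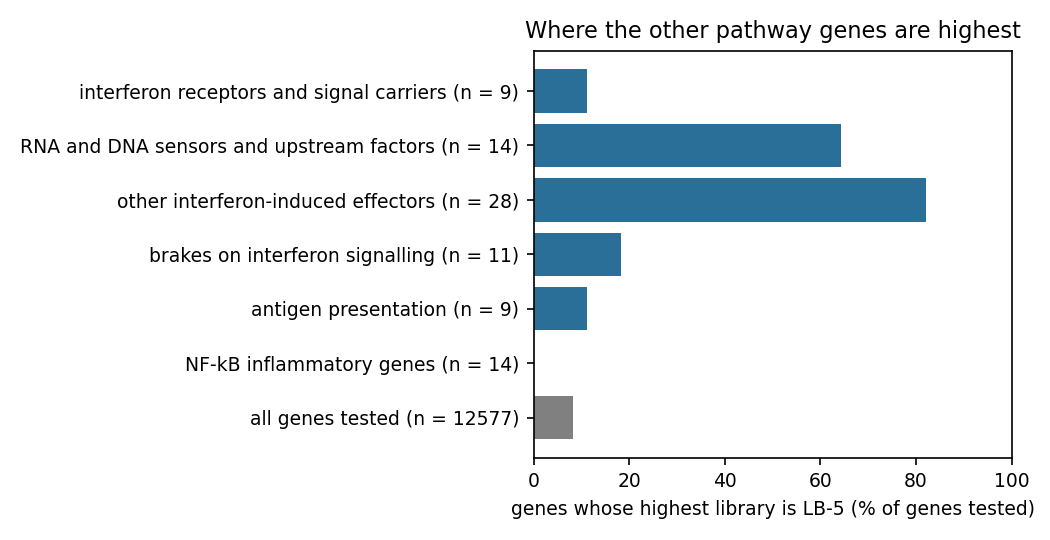
Percentage of tested genes whose highest library of 12 was LB-5, for each pathway list and for all genes tested. Other effectors (82.1%) and sensors (64.3%) lie above all genes (8.29%), whereas receptors and signal carriers (11.1%) and antigen presentation genes (11.1%) lie close to it.

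CMPK2, a nucleotide kinase next to RSAD2 in the reference, is itself in the list of other interferon-induced effectors. It was the neighbour closest to its member in pattern, at 12.2 FPKM in LB-5. Its r with RSAD2 was 0.91 over 12 libraries (0.74 without LB-5, rho 0.73). Any part of position in this likeness was not tested. RNF144A on the other side of RSAD2 lay between 1.81 and 4.27 FPKM, with r = 0.10. DDX27 and CCNDBP1 beside ZNFX1 had r = 0.13 and 0.06, and LIPA beside IFIT5 had 0.30. NANP beside EIF2AK2 reached 0.50, or 0.32 without LB-5. An uncharacterised gene beside USP18, LOC101804607, had r = -0.51. TMPRSS2 and FAM3B beside MX stayed at or under 0.198 and 0.185 FPKM. The other neighbours of IFIT5, USP18 and EIF2AK2 were absent from the count table.

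In bulk muscle, more cells of a type and more RNA per cell cannot be told apart. Macrophage and dendritic cell markers, 41 models of which 37 had counts, summed to 95.3 to 219 FPKM in HB and 101 to 189 in LB. LB-5 was second at 189 FPKM and HB-6 first at 219, but LB-2 had 115. Of these models 27 carry the symbol CD163, and 17 of them were at 0 in LB-5. The 15 lymphocyte markers summed to 13.4 to 31.3 FPKM in HB and 16.5 to 33.6 in LB, with LB-5 at rank 7 with 21.1.

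The 6 heterophil markers summed to 1.60 to 4.48 FPKM in HB and 2.13 to 5.74 in LB, with LB-2 first at 5.74 and LB-5 second at 4.83, the same 2 libraries that led for the members. Taken singly, only 1 of the 6 heterophil markers was highest in LB-5. HB-6, next for the members, had a sum of 3.35 FPKM, and HB-2 had 4.48. Across 12 libraries the heterophil sum had r = 0.65 with the mean of the members (0.69 without LB-5), the highest of the 7 marker lists, and the macrophage and dendritic cell sum had 0.56 (0.39 without LB-5). These values share libraries and depth and are a description. Erythrocyte and thrombocyte, endothelial and fibroblast markers gave LB-5 the ranks 5, 5 and 4 of 12. The 8 muscle fibre markers summed to 66800 to 103000 FPKM in HB and 58400 to 79600 in LB, and LB-5 was the lowest. PVALB was at 0 in LB-5, but its model had only 79 counts over all libraries and did not pass the filter on low counts. The part of these differences in the members' pattern was not tested.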

How the data were processed

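Breast muscle RNA of 6 HB and 6 LB samples was sequenced. Tools named by the submitters' processing notes are HISAT2, DESeq2, StringTie 1.3.1 and fastp 0.18.0. The authors deposited whole-number read counts for 12 libraries and, per the file headers, a mean FPKM per group. The table holds 12 further columns of values per library, with names that end in fpkm. They were not used, and the FPKM given here were not compared with them. Build and read counter were not given in the sources used here.

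FPKM per library was computed from counts, total counts per library and gene lengths implied by the authors' deposited mean FPKM. Lengths from both groups differed by at most 0.463% over 10188 genes. Reference names (assembly GCF_047663525.1) matched 14057 of 15747 numbered models and served for symbols and neighbours only. Coordinates served only to order the genes for the neighbours, and promoter sequences were not analysed here.

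Counts were tested with edgeR 4.0.16 (R 4.3.3, quasi-likelihood, TMM scaling, filterByExpr, Benjamini-Hochberg adjustment over 12577 genes, two-sided), a step tested on simulated data. log2 CPM used library totals adjusted by TMM factors and a prior count of 2. Alternatives used DESeq2 1.42.0, limma 3.58.1, other scalings, no filter and each library left out. The members and all lists were chosen with earlier results of these data known. Named genes were the members, up to 4 per list with the smallest unadjusted p, stated pathway genes, and the 12 genes most like the members (6 without LB-5). CMPK2, HS3ST2, EPSTI1, JAK1 and TAP2 were named after their values were seen, and IFNK and IFNG because they were the ligands found. The values of 1 gene of the receptor and signal carrier list are not reported here.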

Additional observations from a re-analysis of the deposited data

Results flagged for a closer look

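In groups of 6, a library was marked when its gap to the nearest other value, divided by the range of the group, exceeded Dixon's critical value of 0.625. Of 14 groups of FPKM values checked, 8 had such a library. Chance would mark about 1 in 20 only in normally distributed values not chosen beforehand. These FPKM were skewed and the check was not run on a log scale, so that rate does not apply here. These genes were chosen with the LB-5 values known, so the marks are a description and nothing is read from their number. In LB the library was LB-5 for 6 gene models: the ratio was 0.834 for IFIT5, 0.790 for MX, 0.818 for RSAD2, 0.745 for USP18, 0.784 for EIF2AK2 and 0.805 for the second EIF2AK2 model. In HB it was HB-6, with a ratio of 0.794 for MX and 0.779 for ZNFX1. The groups of values share libraries, so the marks are not independent.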

How the results depend on the processing

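Over 46 results, 661 alternative values were computed, of which 628 kept their direction and side of the threshold or stayed near the reported value, 21 moved and 12 reversed. A value counted as kept could still shrink. Without LB-5, EIF2AK2 went from -0.73 to -0.03, ZNFX1 from -0.59 to -0.16 and USP18 from -1.86 to -0.72, and all 3 were counted as kept. None of 115 alternative member log2 differences reversed, but their size depended on the model and on LB-5. With limma on log2(FPKM + 1) and all 12 libraries, the difference was -1.13 for IFIT5, -0.49 for MX and -1.09 for RSAD2. In that fit it was -0.84 for USP18, -0.37 for EIF2AK2 and -0.40 for ZNFX1. DESeq2 called 1 gene. With single libraries left out, the log2 difference ranged from -3.11 to -0.77 for IFIT5, -2.45 to -0.18 for MX and -2.74 to -0.88 for RSAD2, the upper end always without LB-5. The fold range then ran from 18.9 to 107 for IFIT5, 24.8 to 114 for MX, 11 to 55.2 for RSAD2, 6.88 to 24.1 for USP18, 2.92 to 9.89 for EIF2AK2 and 2.52 to 4.88 for ZNFX1. On FPKM + 1 it was 10.8 for MX. The median r of pairs was 0.81 as rho, 0.78 without LB-5, 0.70 without the 2 farthest libraries, 0.85 within HB and 0.97 within LB with LB-5 included. NF-kB genes lower in HB numbered 9 of 17 models with DESeq2, 9 of 19 without the filter and 3 to 10 of 14 with a library left out. Of the 14 in the reported count, 5 of the 12 to which DESeq2 gave a p-value and 5 of 14 without the filter were lower. The list's median was -0.01 with DESeq2, -0.01 with voom weights and -0.12 to 0.26 with a library left out (-0.12 without HB-4). The medians of brakes (-0.13 to 0.12) and antigen presentation (-0.14 to 0.07) changed sign with a library left out. The cause was not tested. With both EIF2AK2 models summed, an alternative chosen after seeing the data, the log2 difference was -0.89. The search for a promoter motif was not run. No paired analysis was possible because the column numbers match no label that pairs samples. Low counts limit MX, with 10 counts in LB-1.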

Other observations

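Of genes highest in LB-5, 35 with at least 1 FPKM in that library reached at least 4-fold over their median, of which 5 were members, 14 were in a pathway list and 16 were in none. The last set held GVIN1 models (8.82-fold and 7.93-fold), HERC3 (6.85-fold), CH25H (5.53-fold), the enzyme that makes 25-hydroxycholesterol, and RNF135 (5.20-fold). It also held TNFSF4 (7.08-fold), GRIA1 (6.3-fold), SFTPA1 (6.03-fold), MITD1 (5.79-fold), ANKRD33 (4.1-fold) and a further model with the symbol IRF3 (4.81-fold). The rest were HS3ST2, the second EIF2AK2 model and assembled models without a symbol. These were named after their values were seen.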
